A study of Mus musculus with 33 samples.

Results

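ESK981 given alone was compared with vehicle in tumours of Myc-CaP, a mouse prostate cancer cell line that was grown from a carcinoma of a mouse carrying a prostate-driven human MYC transgene. The members were the 18 tumours of these 2 groups, of 33 tumours sequenced in all, and they were chosen by treatment label alone. The ESK981 group had 8 tumours from 5 mice and the vehicle group had 10 tumours from 5 mice. All mice were FVB males with Myc-CaP cells injected under the skin of both flanks, and dosing began when tumours reached 50 mm3 and ran for 3 weeks. ESK981 mice received 15 mg/kg by gavage on 5 days a week, and vehicle mice received vehicle on the same schedule. The study also gave an anti-PD-1 antibody or an isotype control, at 200 µg per mouse 3 times a week, alone or with ESK981. The labels do not say whether the isotype control went to the ESK981 mice, to the vehicle mice or to both. The 7 tumours from 5 mice given anti-PD-1 alone are used here only as values beside the main comparison, and the 8 combination tumours only share the estimate of spread.

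ESK981 is an orally active multi-kinase inhibitor. It blocks VEGF receptors and TIE2, through which endothelial cells are told to sprout, survive and mature. It also inhibits PIKfyve, the lipid kinase that makes phosphatidylinositol 3,5-bisphosphate on late endosomes and lysosomes, and whose loss swells these organelles and blocks the last steps of autophagy. The model is 1 cell line in 1 inbred strain and site, so the tumours share their cancer cell genome and differ in the host tissue that grew into them. A bulk tumour library mixes cancer cells with fibroblasts, vessels and immune cells. In such a library, fewer cells of a type and less RNA per cell cannot be told apart.

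Each tumour was a ribosomal-RNA-depleted total RNA library, and its values were FPKM, fragments per kilobase of gene and scaled to the counted fragments of the library. The mouse was the replicate: log2(FPKM + 0.5) was averaged over the tumours of an ear tag, giving 5 ESK981 and 5 vehicle values per gene. Fold changes are on that scale and understate the change of genes near 0.5 FPKM. Values quoted for single mice, and their mean ± SD (n = 5 mice per group throughout), are plain FPKM.

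Whole fragments recovered from the FPKM steps gave 1.81e+07 to 3.24e+07 per ESK981 tumour and 9.90e+06 to 1.84e+07 per vehicle tumour, so ESK981 values rest on more fragments. Genes of the ribosomal RNA type took 2.31% to 14.7% of fragments in ESK981 tumours and 8.87% to 35.3% in vehicle tumours. The sample descriptions carry a run code in the form of a flow cell identifier. All 8 ESK981 tumours, and 1 of 10 vehicle tumours (the right tumour of vehicle mouse 5, called 5R below), share 1 code, and the other 9 vehicle tumours carry another. Treatment and run therefore cannot be told apart over most of the vehicle group. Values of vehicle 5R and of anti-PD-1 mice, which share the ESK981 run code, stand beside results below, but 5R also had the largest ribosomal RNA share of the vehicle tumours. Of 10 tumour epithelium markers, Epcam and Cldn7 were below 0.5 FPKM in every ESK981 and vehicle tumour. The summed level of the 10 markers was 64.8 to 106 FPKM in ESK981 tumours and 46.8 to 166 FPKM in vehicle tumours.

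Of 11639 protein-coding genes tested, 1564 differed between ESK981 and vehicle mice (limma, Benjamini-Hochberg adjusted p under 0.05), which is 13.4% of those tested. Leaving out 1 mouse moved this count by over 1.5 times for 6 of the 10 mice: it was 747, 860, 704 and 789 without ESK981 mouse 1, 2, 4 or 5, and 611 and 752 without vehicle mouse 2 or 3. Of these, 889 (7.64%) were higher in ESK981 mice and 675 (5.8%) were lower. The rises were small and the falls larger: the median rise was 1.47-fold, with 28 genes at 2-fold or more, and the median fall was 1.90-fold, with 274 genes at 2-fold or more. Genes matched by immune symbol patterns gave 7 rises and 207 falls among 501 tested, 42.7% of them called. The 11138 genes outside those patterns gave 882 rises and 468 falls (12.1% called). The mice of the groups did not overlap in 1081 of the 1564 called genes, beside 1836 of all 11639 tested (15.8%).

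The balance of rises and falls depended on how libraries were scaled. The median log2 fold change over all genes was 0.11 on the deposited scale and 0.01 after median-of-ratios scaling. It was 0.62 with vehicle 5R as the only vehicle tumour, and 0.03 in that fit with median-of-ratios scaling. Rises made up 56.8% of calls on the deposited scale, 44.7% (1558 rises and 1928 falls) after median-of-ratios scaling and 37.7% (1180 and 1946) after scaling to nuclear protein-coding fragments. With vehicle mouse 5 left out they made up 28.8% (375 and 926), and with vehicle 5R as the only vehicle tumour 95.8% (4083 and 181, which are 35.1% and 1.56% of the genes tested, with 36.6% called in all). All 1564 called genes kept their sign after median-of-ratios scaling. The median moved only from 0.11 to 0.01 with that scaling, which is small beside called changes. Kept signs therefore say little about how firm the directions are.

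In 51 pathway lists, the members called by limma were few in each list (the plot of called members per list). The median fold change was above 0 in 40 lists, and it ran between −0.39 for fibrillar collagens and 0.29 for luminal prostate genes, beside 0.08 for all protein-coding genes. After median-of-ratios scaling it was above 0 in 27 lists. In 9 lists no member was called by limma. Counts of called members in the lists below stand beside 7.64% of all protein-coding genes called higher and 5.8% called lower.

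**Figure D1:**
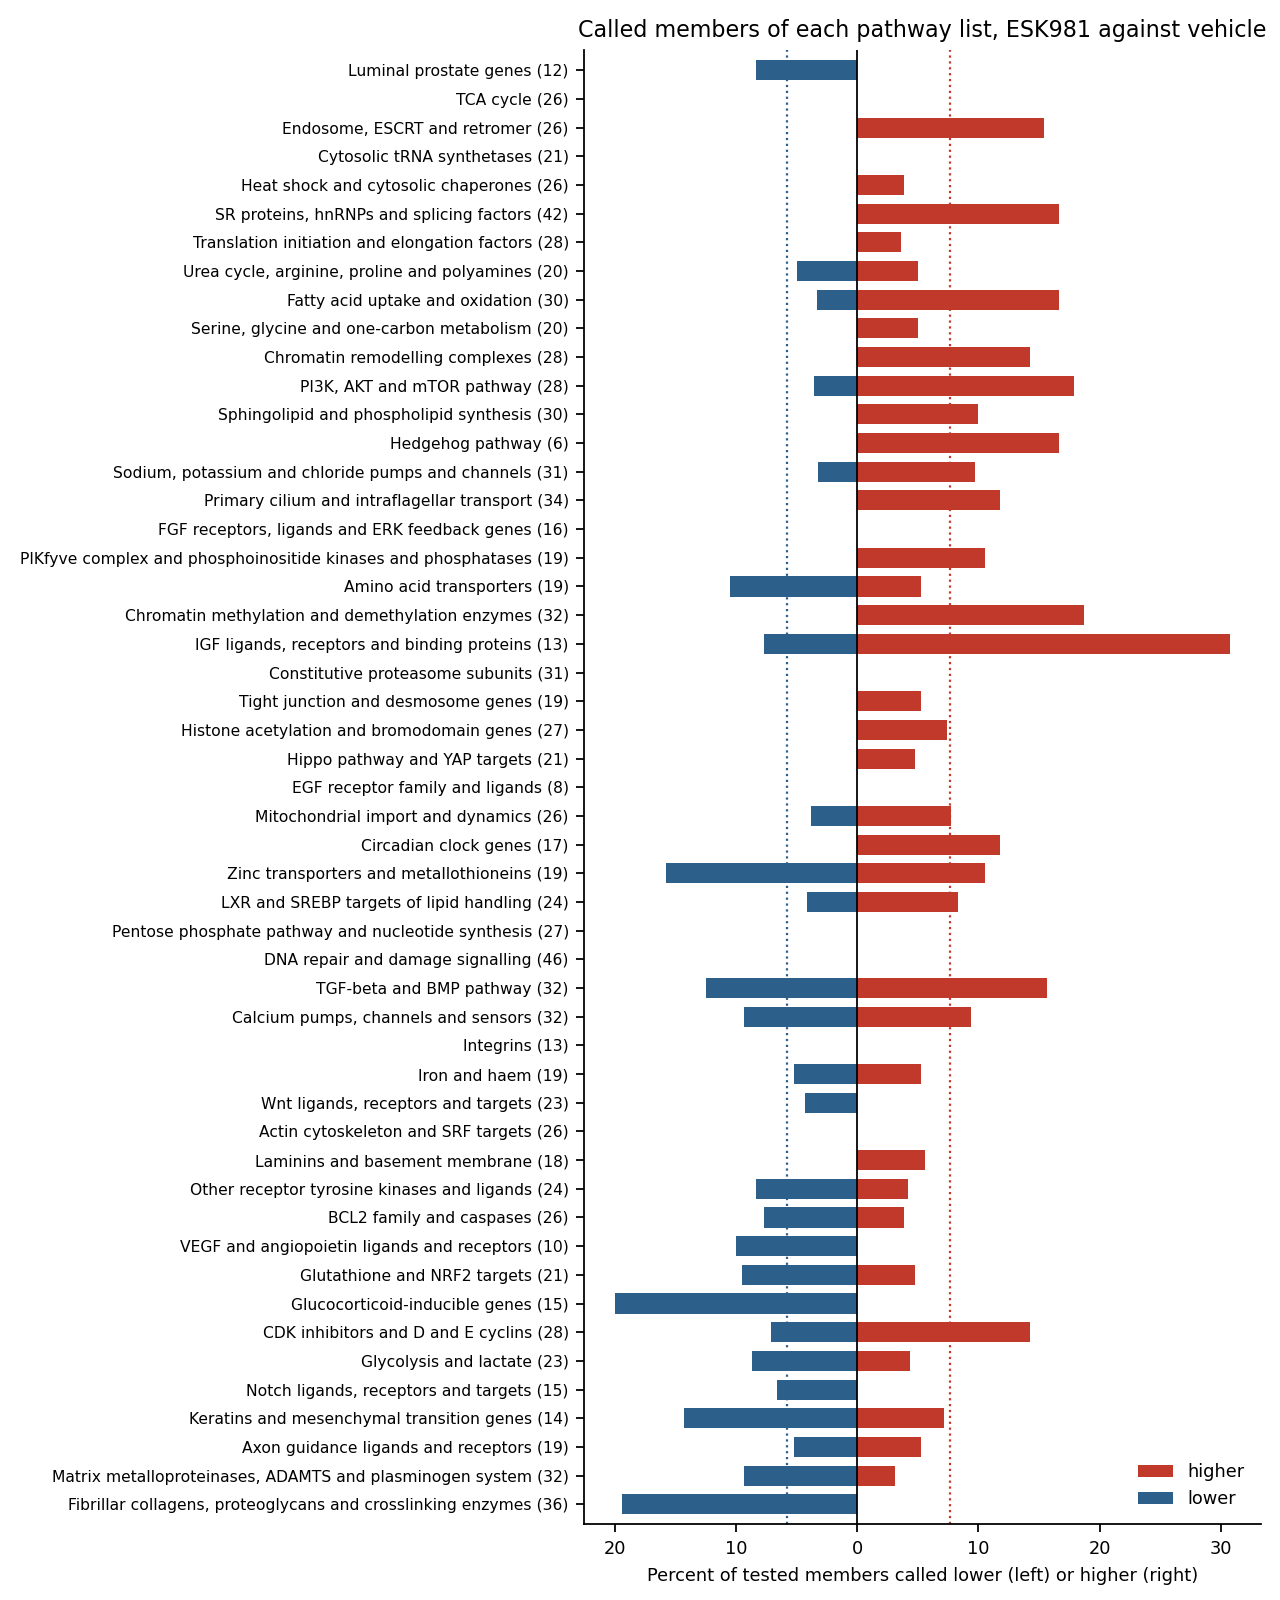
Percent of the tested members of each of 51 pathway lists called lower (blue bars, to the left) or higher (red bars, to the right) in ESK981 mice against vehicle mice, with the number tested in brackets and the lists ordered by median log2 fold change. Dotted lines mark the shares over all protein-coding genes, 7.64% higher and 5.8% lower. Collagens and their modifying enzymes, at the bottom, have calls to the left only.

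The largest rise among named genes was in Cps1, carbamoyl-phosphate synthetase, the entry enzyme of the urea cycle (chromosome 1, 67123026 to 67231259 in GRCm38). Its level was 6.55, 9.56, 4.6, 4.09 and 2.9 FPKM in ESK981 mice 1 to 5, against 1.61, 1.52, 1.51, 0.13 and 1.04 FPKM in vehicle mice 1 to 5. ESK981 mice 1 and 2 were highest, vehicle mouse 4 was lowest, and the groups did not overlap. The log2 fold change was 1.90 ± 0.31 (SE; 3.72-fold; limma adjusted p = 0.00162). In anti-PD-1 mice Cps1 averaged 1.36 ± 0.493 FPKM, and the ESK981 minus anti-PD-1 difference was 1.60 ± 0.31 (adjusted p = 0.0648). No other urea cycle, arginine or proline gene passed the test upwards: of 20 tested members Cps1 rose, Smox fell and 18 did not pass. Smox, spermine oxidase of polyamine breakdown, averaged 0.439 ± 0.123 FPKM in ESK981 mice and 1.14 ± 0.348 FPKM in vehicle mice (log2 −0.78 ± 0.19; limma adjusted p = 0.0119).

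Secreted binding proteins for insulin-like growth factors came next. Igfbp5 (chromosome 1, 72857932 to 72874884) was at 460.1, 660.0, 145, 209 and 166 FPKM in ESK981 mice, against 105, 44.3, 56.8, 137 and 50.4 FPKM in vehicle mice. The lowest ESK981 mouse, mouse 3, lay just above the highest vehicle mouse, and ESK981 mice 1 and 2 were far above the rest. The log2 fold change was 1.89 ± 0.34 (3.7-fold; limma adjusted p = 0.00306). Igfbp3 (chromosome 11, 7206086 to 7213923) was at 14.5, 15.1, 12.3, 22 and 23.2 FPKM in ESK981 mice, against 11, 6.98, 3.57, 8.13 and 4.3 FPKM in vehicle mice, with no overlap (log2 1.42 ± 0.27; limma adjusted p = 0.00396). Here the order of ESK981 mice differed, since mice 4 and 5 were highest. Igfbp5 and Igfbp3 were 1.49 ± 0.34 and 0.93 ± 0.27 above anti-PD-1 mice on the log2 scale, with adjusted p of 0.0786 and 0.126.

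Other genes among the 15 largest rises that met the naming rule had varied roles. Prlr, the prolactin receptor, was at 26.7, 34.8, 16.8, 18.2 and 18.9 FPKM in ESK981 mice, against 10.1, 8.59, 10.2, 10.3 and 8.22 FPKM in vehicle mice (log2 1.18 ± 0.23; limma adjusted p = 0.00381). The highest vehicle mouse was well below the lowest ESK981 mouse. Zbtb20, a zinc finger repressor of transcription, was at 44.2, 56.8, 36.4, 37.1 and 36.9 FPKM in ESK981 mice, against 21.1, 15.7, 21.1, 21.6 and 16.2 FPKM in vehicle mice (log2 1.14 ± 0.19; limma adjusted p = 0.00193). Cav2, a caveolin that coats small pits of the plasma membrane, was at 24.3, 21.6, 34.1, 38.5 and 41.2 FPKM in ESK981 mice, against 15.7, 12.9, 13, 12.6 and 16 FPKM in vehicle mice (log2 1.13 ± 0.22; limma adjusted p = 0.0041). Unlike Cps1 and Igfbp5, Cav2 was lowest in ESK981 mice 1 and 2 among the ESK981 mice. Msrb2, a mitochondrial enzyme that repairs oxidised methionine, averaged 5.77 ± 0.896 FPKM in ESK981 mice and 2.29 ± 0.399 FPKM in vehicle mice (log2 1.21 ± 0.21; limma adjusted p = 0.00196). Spp1, the secreted phosphoprotein osteopontin, averaged 113 ± 17.3 FPKM in ESK981 mice and 56.7 ± 6.76 FPKM in vehicle mice (log2 1.01 ± 0.22; limma adjusted p = 0.00755). Trove2, which encodes the RNA-binding protein Ro60, averaged 16.6 ± 3.96 FPKM in ESK981 mice and 8.1 ± 2.53 FPKM in vehicle mice (log2 1.03 ± 0.23; limma adjusted p = 0.00859). Npy, the neuropeptide Y precursor, averaged 207 ± 62.4 FPKM in ESK981 mice and 122 ± 39.1 FPKM in vehicle mice (log2 1.04 ± 0.33; limma adjusted p = 0.0412). With single mice left out, the call ended for Npy in 8 (up to 0.103) of 10 fits, and without tumour 5R of vehicle mouse 5 its adjusted p was 0.0943.

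**Figure D2:**
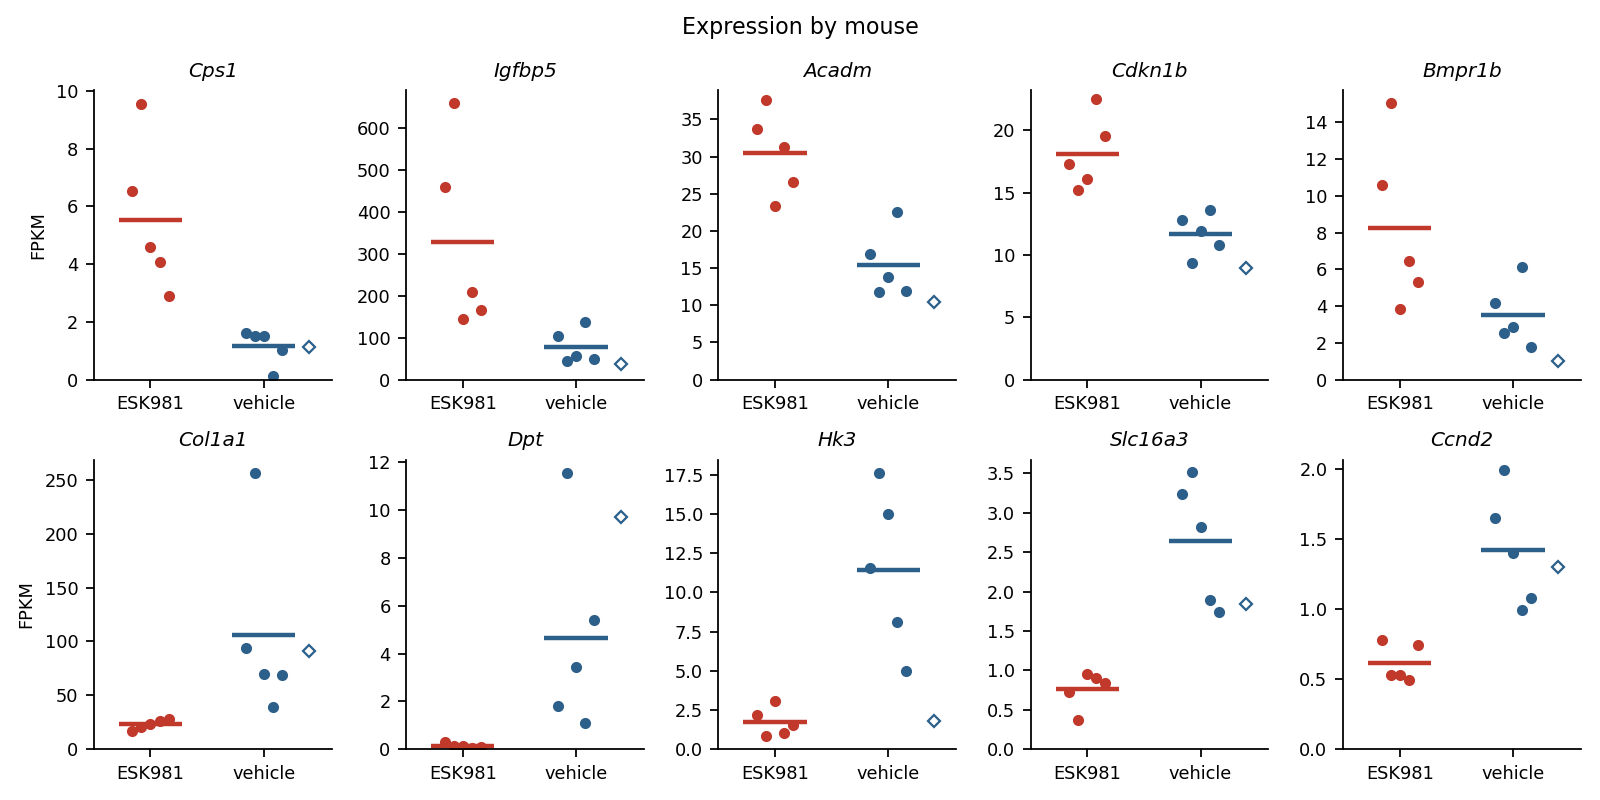
Expression of 10 named genes in FPKM (linear axes from 0), with a filled point for each of the 5 ESK981 mice (red, left) and 5 vehicle mice (blue, right) and a line at the mean. The open diamond is vehicle tumour 5R, the vehicle tumour with the run code of the treated tumours. Cps1, Igfbp5, Acadm and Cdkn1b are higher in all ESK981 mice, Bmpr1b overlaps between the groups, and the lower row shows genes that were lower in all ESK981 mice.

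The 15 largest falls that met the naming rule, which passes over immune symbols and genes whose mice overlap, included mitochondrially encoded genes and collagens. Of 13 mitochondrially encoded protein genes, 12 fell, and their summed level was 3991 to 8369 FPKM in ESK981 tumours and 5683 to 90856 FPKM in vehicle tumours. mt-Nd6, the light-strand subunit gene of complex I, was at 189.9, 147, 439.7, 122 and 252 FPKM in ESK981 mice, against 1057, 1997, 2797, 1780.0 and 6558 FPKM in vehicle mice (log2 −3.45 ± 0.60; limma adjusted p = 0.00212). Vehicle mouse 5 was highest, with 10714 FPKM in its tumour 5R, and without 5R the log2 fold change was −3.23. The other named members, mt-Co2, mt-Co1, mt-Nd4l and mt-Nd3, had log2 fold changes of −2.18, −1.84, −1.73 and −1.69, with limma adjusted p of 0.00193, 0.00703, 0.00193 and 0.00516. In anti-PD-1 tumours, which share the ESK981 run code, the summed level was 7233 to 52728 FPKM. Its median was 7780 FPKM there, 6444 FPKM in ESK981 tumours and 21346 FPKM in vehicle tumours. The median log2 difference of the 13 genes was −1.01 against anti-PD-1 mice and −1.41 against vehicle mice. The falls against vehicle went along with the lower ribosomal RNA share of ESK981 tumours given above. The part of that share and of the run in these falls was not tested.

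Hk3, the hexokinase of myeloid cells (chromosome 13, 55005985 to 55021385), was at 2.17, 0.843, 3.08, 1.07 and 1.56 FPKM in ESK981 mice, against 11.6, 17.6, 15, 8.14 and 4.98 FPKM in vehicle mice. All ESK981 mice were below all vehicle mice, and the log2 fold change was −2.31 ± 0.44 (limma adjusted p = 0.00369). Vehicle 5R was at 1.81 FPKM, inside the ESK981 range, while anti-PD-1 mice averaged 7.41 ± 2.01 FPKM. F10, coagulation factor X, Serpina3g, a serine protease inhibitor, Rarres2, the precursor of the chemoattractant chemerin, and Ubd, a ubiquitin-like protein induced by interferon, also fell. Their log2 fold changes were −1.80 ± 0.34, −1.78 ± 0.37, −1.76 ± 0.39 and −1.67 ± 0.37, with limma adjusted p of 0.00364, 0.00585, 0.00826 and 0.00767. Beside these falls, 7 of 12 macrophage markers were lower and none higher, with a summed level of 148 to 324 FPKM in ESK981 tumours and 216 to 1133 FPKM in vehicle tumours. Of 9 T cell markers tested, 6 were lower, with a summed level of 1.98 to 4.5 FPKM in ESK981 tumours and 1.19 to 14.1 FPKM in vehicle tumours. Vehicle 5R was the lowest of these, below every ESK981 tumour, and against 5R with median-of-ratios scaling the median log2 fold change of the T cell markers was 0.34. The part of immune cell content in the fall of these genes was not tested.

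Matrix genes formed the list with the lowest median. Of 36 tested fibrillar collagens, proteoglycans and crosslinking enzymes, 7 fell, none rose and 29 did not pass, with a median of −0.39. The share that fell was 19.4%, beside 5.8% of all protein-coding genes. Col1a1, the main chain of type I collagen (chromosome 11, 94936224 to 94953042), was at 17.3, 20.4, 23.4, 26.3 and 28 FPKM in ESK981 mice, against 93.8, 257, 69.5, 39.3 and 69.3 FPKM in vehicle mice. The ESK981 mice lay close together, all below every vehicle mouse, and vehicle mouse 2 was far above the others. The log2 fold change was −1.80 ± 0.42 (3.49-fold lower; limma adjusted p = 0.0108). Col3a1, the chain of type III collagen, was at 7.05, 10.7, 7.32, 8.41 and 9.65 FPKM in ESK981 mice, against 39.2, 134, 27.5, 11.8 and 26 FPKM in vehicle mice (log2 −1.75 ± 0.49; limma adjusted p = 0.0246). Col5a1, of the type V collagen that nucleates fibrils, was at 8.48, 8.3, 11.4, 10.3 and 11.6 FPKM in ESK981 mice, against 17.5, 29.8, 14.6, 16.2 and 16.8 FPKM in vehicle mice (log2 −0.84 ± 0.22; limma adjusted p = 0.0176).

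The other 4 called members were named after their values were seen. They were Col1a2, the second chain of type I collagen (log2 −1.26 ± 0.41), Col5a3 (−1.21 ± 0.32), Col6a1 of the beaded type VI collagen (−1.21 ± 0.34) and Dcn, the proteoglycan decorin (−1.39 ± 0.45), with limma adjusted p of 0.0451, 0.0179, 0.0261 and 0.0435. Not every matrix gene moved down: Postn, Thbs1, Thbs2 and Vcan had positive values of 0.74, 0.76, 0.54 and 0.49 that did not pass. Outside the list, Dpt, dermatopontin of the dermal matrix, was at 0.287, 0.144, 0.119, 0.0628 and 0.104 FPKM in ESK981 mice, against 1.8, 11.5, 3.44, 1.08 and 5.39 FPKM in vehicle mice (log2 −2.29 ± 0.45; limma adjusted p = 0.00463). Pdpn, podoplanin of fibroblasts and lymphatic vessels, averaged 0.911 ± 0.361 FPKM in ESK981 mice and 5.45 ± 3.14 FPKM in vehicle mice (log2 −1.84 ± 0.35; limma adjusted p = 0.00369). Beside these genes, 5 of 11 tested fibroblast markers fell and none rose (median −1.21), with a summed level of 34.6 to 69.3 FPKM in ESK981 tumours and 63.4 to 742 FPKM in vehicle tumours, and some of these markers are the collagens themselves. The part of fibroblast content was not tested. With single mice left out of 10 fits, the calls ended for Col3a1 without ESK981 mouse 1 or 4 or vehicle mouse 2 (adjusted p up to 0.0681), for Col5a1 without vehicle mouse 2 (adjusted p up to 0.0574), and for Dcn in 8 (up to 0.123), Col1a2 in 8 (up to 0.128) and Col6a1 in 4 (up to 0.0784) of them. Without vehicle tumour 5R, Dcn and Col1a2 had adjusted p of 0.102 and 0.0629.

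Of 32 matrix-degrading enzymes and their inhibitors, 3 fell and 1 rose, with a median of −0.34. Adam8, a membrane protease of leukocytes, averaged 3.97 ± 0.938 FPKM in ESK981 mice and 11.7 ± 4.83 FPKM in vehicle mice (log2 −1.37 ± 0.30; limma adjusted p = 0.00818). Adamts12, a secreted protease of the opposite direction, averaged 2.98 ± 0.704 FPKM in ESK981 mice and 1.6 ± 0.381 FPKM in vehicle mice (log2 0.70 ± 0.17; limma adjusted p = 0.0118). Of 14 tested keratins and mesenchymal transition genes, 1 rose, 2 fell and 11 did not pass, with a median of −0.18. Vim, the intermediate filament vimentin of mesenchymal cells, averaged 13.8 ± 3.72 FPKM in ESK981 mice and 34.9 ± 11.3 FPKM in vehicle mice (log2 −1.25 ± 0.26; limma adjusted p = 0.00648). Grhl2, a transcription factor that keeps epithelial identity, averaged 10.3 ± 1.3 FPKM in ESK981 mice and 7.2 ± 0.281 FPKM in vehicle mice (log2 0.49 ± 0.12; limma adjusted p = 0.0155). Against vehicle 5R with median-of-ratios scaling Vim and Grhl2 were at −2.08 and −0.00109. None of 6 tested tumour epithelium markers was called by limma. Of 18 laminin and basement membrane genes, Col4a5 of type IV collagen was the sole call (log2 0.62 ± 0.18; limma adjusted p = 0.0299), and it was at 7.25 FPKM in vehicle 5R, near the lowest ESK981 mouse. None of 13 integrins passed, and 2 were at an unadjusted p under 0.05. Over all protein-coding genes that share is at least the 13.4% called, since every called gene also meets it. The call ended for Col4a5 in 6 (up to 0.0794) of 10 single-mouse fits, and for Col4a5 after GC correction (adjusted p = 0.0653) and after median-of-ratios scaling (0.104).

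**Figure D3:**
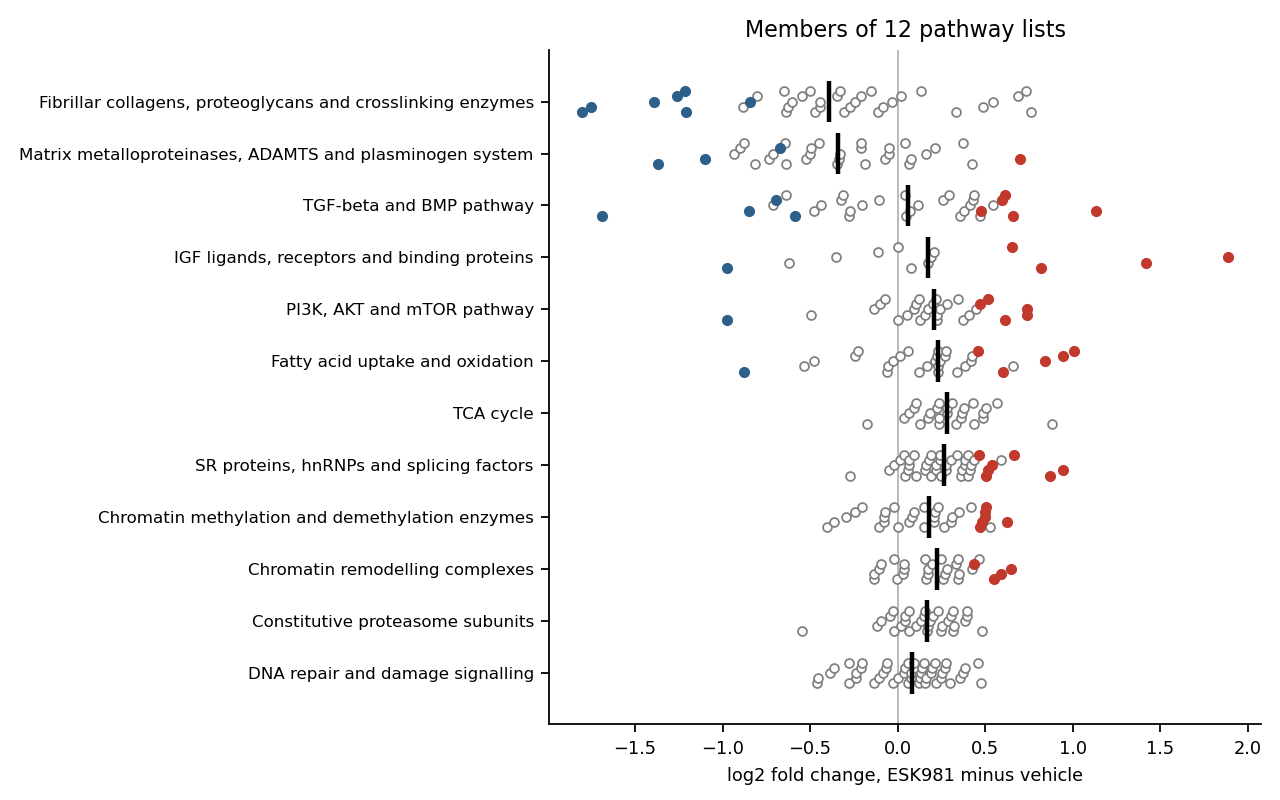
log2 fold change (ESK981 minus vehicle) of every tested member of 12 pathway lists, with filled points for members called higher (red) or lower (blue), open points for members not called, and a black bar at the median of each list. Matrix members spread to the left, TGF-beta and BMP members to both sides, and TCA cycle, proteasome and DNA repair members sit close to their medians with none called.

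Calls in growth factor pathways were spread over ligands, receptors and modulators. In the IGF list, of 13 tested members 4 rose and 1 fell (30.8% and 7.69%, beside 7.64% and 5.8% of all protein-coding genes). Beside Igfbp5 and Igfbp3, Insr, the insulin receptor, was at 22.8, 30.7, 15.4, 20.1 and 17.7 FPKM in ESK981 mice, against 14.1, 11.3, 11.7, 15.5 and 12.4 FPKM in vehicle mice, and ESK981 mouse 3 overlapped with vehicle mouse 4 (log2 0.65 ± 0.18; limma adjusted p = 0.0222). Stc1, a secreted inhibitor of the protease that cuts IGF-binding proteins, rose by 0.82 ± 0.21. Igfbp6 fell, with an average of 0.437 ± 0.144 FPKM in ESK981 mice and 1.67 ± 1.04 FPKM in vehicle mice (log2 −0.97 ± 0.24; limma adjusted p = 0.0137). Igf1 and Igf1r, the ligand and its receptor, had values of −0.35 ± 0.23 and 0.21 ± 0.15 that did not pass. Insr, Igfbp6 and Stc1 were named after their values were seen. The calls ended for Insr in 4 (up to 0.0611) of 10 single-mouse fits, and after GC correction (described below) for Insr and Igfbp6, with adjusted p of 0.0641 and 0.0617.

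TGF-beta and BMP signalling uses secreted ligands, paired type I and type II receptor kinases and SMAD transcription factors. Of 32 members tested, 5 rose and 4 fell (15.6% and 12.5%, beside 7.64% and 5.8% of all protein-coding genes), with a median of 0.06. The 4 receptors called higher belong to the BMP and activin arms: Bmpr1b (1.13 ± 0.30), Acvr2a (0.66 ± 0.17), Bmpr2 (0.61 ± 0.16) and Bmpr1a (0.47 ± 0.16), with limma adjusted p of 0.0202, 0.0161, 0.0164 and 0.0491. Acvr1, another receptor of these arms, had a value of 0.05 and did not pass, and Acvrl1 fell. Bmpr1b was at 10.6, 15, 3.85, 6.47 and 5.31 FPKM in ESK981 mice, against 4.19, 2.51, 2.88, 6.13 and 1.77 FPKM in vehicle mice. ESK981 mice 1 and 2 were highest, and mice 3 and 5 overlapped with vehicle mice. Tgfb3, a ligand, averaged 13.4 ± 2.85 FPKM in ESK981 mice and 8.37 ± 0.72 FPKM in vehicle mice (log2 0.60 ± 0.14; limma adjusted p = 0.0118).

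The 4 falls in the list were in Tgfbi, a secreted matrix protein induced by TGF-beta, in Inhba, the activin A subunit, in Acvrl1, the endothelial receptor ALK1, and in Smad6, an inhibitory SMAD. Tgfbi was at 5.93, 2.36, 6.98, 4.22 and 6.16 FPKM in ESK981 mice, against 20.3, 21.9, 24.7, 14.8 and 7.59 FPKM in vehicle mice (log2 −1.69 ± 0.35; limma adjusted p = 0.00643). Vehicle mouse 5 was the lowest of its group, and its tumour 5R, at 4.3 FPKM, was inside the ESK981 range. Inhba, Acvrl1 and Smad6 had log2 fold changes of −0.85 ± 0.25, −0.69 ± 0.20 and −0.59 ± 0.15 (limma adjusted p of 0.0298, 0.0261 and 0.0159). Set against vehicle 5R alone, Tgfbi, Acvrl1 and Smad6 turned to 0.092, 0.22 and 0.00422. The BMP and activin receptors (Acvr1 included), Inhba, Acvrl1 and Smad6 were named after their values were seen. In 10 single-mouse fits the calls ended for Bmpr1a in 8 (up to 0.113), Bmpr1b in 4 (up to 0.0552), Acvrl1 in 5 (up to 0.0769) and Inhba in 4 (up to 0.0875), and Bmpr1a was not called after GC correction (adjusted p = 0.0772) or without vehicle tumour 5R (0.0617).

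In the PI3K, AKT and mTOR list, 5 of 28 members rose and 1 fell, with a median of 0.21. These are 17.9% and 3.57%, beside 7.64% and 5.8% of all protein-coding genes. The rises included both the catalytic subunit and brakes on the pathway. Deptor, an inhibitor that binds mTOR, was at 10.8, 10.9, 10.5, 10.1 and 9.63 FPKM in ESK981 mice, against 7.19, 5.23, 6.12, 6.74 and 5.84 FPKM in vehicle mice. The groups were tight and did not overlap (log2 0.74 ± 0.15; limma adjusted p = 0.00548). Rictor, the scaffold of mTOR complex 2, averaged 9.93 ± 1.45 FPKM in ESK981 mice and 6.31 ± 0.661 FPKM in vehicle mice (log2 0.61 ± 0.14; limma adjusted p = 0.00856). Pik3ca, a catalytic subunit of PI3K, and Sesn1 and Sesn3, inhibitors of mTOR complex 1, were named after their values were seen. They rose by 0.52 ± 0.13, 0.74 ± 0.23 and 0.47 ± 0.16 on the log2 scale. Pik3cd, the leukocyte catalytic subunit, also named afterwards, fell by 0.97 ± 0.26 on that scale. Pik3r1, Akt1 and Mtor had values of −0.10, 0.13 and 0.12 and did not pass. The call did not hold for Pik3cd without ESK981 mouse 4 or vehicle mouse 2 or 3 (adjusted p up to 0.0643), or for Sesn1 in 7 (up to 0.107) and Sesn3 in 8 (up to 0.121) of 10 single-mouse fits. It was also lost for Pik3ca and Sesn3 after GC correction (adjusted p = 0.0658 and 0.271). Pik3cd turned to 0.0055 against vehicle 5R alone, but was at −0.48 there with median-of-ratios scaling.

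Among other receptor tyrosine kinases and ligands, 1 of 24 members rose and 2 fell. Kitl, the ligand of KIT, was at 12.9, 12.7, 7.93, 10.4 and 10.9 FPKM in ESK981 mice, against 7.33, 6.15, 5.58, 7.02 and 5.03 FPKM in vehicle mice, with no overlap (log2 0.77 ± 0.20; limma adjusted p = 0.017). Csf1, the growth factor of macrophages, averaged 2.73 ± 1.0 FPKM in ESK981 mice and 5.82 ± 1.38 FPKM in vehicle mice (log2 −0.96 ± 0.23; limma adjusted p = 0.0119), beside the lower macrophage markers given above. Single members passed in other developmental pathways. Cdon, a Hedgehog co-receptor, was at 25.3, 30.4, 25, 26.9 and 23.2 FPKM in ESK981 mice, against 17.7, 15.3, 14.3, 15.5 and 14.4 FPKM in vehicle mice, again with no overlap (log2 0.74 ± 0.14; limma adjusted p = 0.00364). Lats1, the kinase of the Hippo pathway, rose by 0.54 ± 0.17 (limma adjusted p = 0.0376). Fzd1, a Wnt receptor, Lfng, a glycosyltransferase that modifies Notch, and Sema4a, a semaphorin, fell, with log2 fold changes of −0.83 ± 0.27, −0.73 ± 0.20 and −1.14 ± 0.26 (limma adjusted p of 0.044, 0.0239 and 0.00941), while Sema3c rose by 0.65 ± 0.20 (0.0376). Against vehicle 5R alone, Fzd1 and Lfng turned to 0.20 and 0.24 (−0.022 and −0.46 with median-of-ratios scaling as well). In 10 single-mouse fits the calls ended for Lats1 in 6 (up to 0.0857), Fzd1 in 8 (up to 0.111), Lfng in 5 (up to 0.0713) and Sema3c in 7 (up to 0.0964), and Sema3c was not called after GC correction (adjusted p = 0.206).

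Genes of kinases that ESK981 inhibits were not called against the 5 vehicle mice. Pikfyve was at 2.82, 2.75, 2.44, 2.29 and 2.49 FPKM in ESK981 mice, against 2.59, 2.52, 2.32, 2.02 and 1.39 FPKM in vehicle mice, and the groups overlapped (log2 0.22 ± 0.17; limma adjusted p = 0.397). Kdr, which encodes VEGF receptor 2, was at 1.3, 1.26, 1.09, 0.907 and 1.25 FPKM in ESK981 mice, against 1.13, 1.07, 0.547, 0.796 and 0.322 FPKM in vehicle mice (log2 0.44 ± 0.19; limma adjusted p = 0.113). Flt1, which encodes VEGF receptor 1, averaged 1.35 ± 0.29 FPKM in ESK981 mice and 1.14 ± 0.51 FPKM in vehicle mice (log2 0.27 ± 0.22; limma adjusted p = 0.433). Against vehicle 5R alone, all 3 were called higher, with log2 fold changes of 0.998 for Pikfyve, 1.65 for Kdr and 1.71 for Flt1 (limma adjusted p of 0.0172, 0.00112 and 0.00234). With median-of-ratios scaling as well they were 0.40, 1.57 and 1.56 (limma adjusted p of 0.0922, 0.000197 and 0.00096). Tek, which encodes TIE2, was not tested because only 2 tumours of the series reached 0.5 FPKM. Its lowest, median and highest values were 0.0853, 0.172 and 0.536 FPKM in ESK981 tumours and 0, 0.132 and 0.728 FPKM in vehicle tumours. Of 10 tested VEGF and angiopoietin genes, Nrp2, a co-receptor of VEGF-C, was the sole call. It fell (log2 −0.98 ± 0.31; limma adjusted p = 0.0397), and its call ended in most single-mouse fits (Nrp2 in 8 (up to 0.11) of 10). Nrp2 turned to 0.13 against vehicle 5R alone, but was at −0.41 there with median-of-ratios scaling.

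No endothelial marker was called lower in ESK981 mice. Of 12 tested endothelial markers, 4 rose (33.3%, beside 7.64% of all protein-coding genes) and none fell (median 0.35). Their summed level was 12.9 to 22.4 FPKM in ESK981 tumours and 1.33 to 18.4 FPKM in vehicle tumours. Cdh5, the cadherin of endothelial junctions, was at 2.98, 2.59, 2.26, 3.31 and 4.06 FPKM in ESK981 mice, against 1.8, 1.07, 0.944, 1.44 and 0.561 FPKM in vehicle mice, with no overlap (log2 1.17 ± 0.26; limma adjusted p = 0.00822). Vehicle 5R was at 0 FPKM for Cdh5 and had the lowest summed endothelial level of the vehicle tumours. Without 5R the log2 fold change of Cdh5 was 1.0 (adjusted p = 0.00863). Rgs5, a G protein regulator of pericytes, averaged 3.5 ± 1.2 FPKM in ESK981 mice and 1.4 ± 0.493 FPKM in vehicle mice (log2 1.06 ± 0.27; limma adjusted p = 0.016). Of 8 tested pericyte and smooth muscle markers, 2 rose and none fell, 3 had a value above 0, and their median was −0.15. Emcn, an endothelial surface mucin, and Ptprb, an endothelial phosphatase that acts on TIE2, were named after their values were seen, with log2 fold changes of 0.51 ± 0.15 and 0.69 ± 0.19 (limma adjusted p of 0.0312 and 0.0246). Calls were lost for Emcn in 7 (up to 0.0748) and Ptprb in 4 (up to 0.0657) of 10 single-mouse fits, and for Emcn after GC correction (adjusted p = 0.0961).

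Before GC correction, genes of the endosomal system, where PIKfyve works, were called upwards only. Of 26 endosome, ESCRT and retromer genes, 4 rose (15.4%, beside 7.64% of all protein-coding genes) and none fell (median 0.28). The median transcript GC content of this list was 45.4%, beside 50.6% for all tested genes, and its median after GC correction was 0.13. With that correction 7 members were called higher and 1 lower, beside 13.2% and 8.91% of all genes with a GC value. Against vehicle 5R with median-of-ratios scaling the list median was −0.14, beside −0.03 for all protein-coding genes. Vps35, the core of the retromer that returns cargo from endosomes, was at 12, 10.6, 9.06, 13.2 and 12.7 FPKM in ESK981 mice, against 8.1, 6.64, 7.82, 8.29 and 6.31 FPKM in vehicle mice (log2 0.60 ± 0.18; limma adjusted p = 0.0355). Stam, which sorts ubiquitinated receptors, averaged 3.66 ± 0.281 FPKM in ESK981 mice and 2.44 ± 0.372 FPKM in vehicle mice (log2 0.51 ± 0.15; limma adjusted p = 0.0265). Of 19 genes of the PIKfyve complex and related phosphoinositide enzymes, 2 rose (10.5%, beside 7.64% of all protein-coding genes). Mtmr1, a phosphatase of phosphoinositides, averaged 4.96 ± 0.546 FPKM in ESK981 mice and 2.98 ± 0.386 FPKM in vehicle mice (log2 0.66 ± 0.15; limma adjusted p = 0.00941), and Pik3c2a, a class II PI3K, averaged 8.37 ± 1.05 FPKM in ESK981 mice and 5.28 ± 0.733 FPKM in vehicle mice (log2 0.62 ± 0.15; limma adjusted p = 0.0139). In each of these 4 genes all ESK981 mice were above all vehicle mice. The calls ended for Vps35 in 7 (up to 0.0843) and Stam in 7 (up to 0.0624) of 10 single-mouse fits.

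In the list of luminal prostate genes, 1 of 12 tested members was called. Ndrg1, which androgen and hypoxia induce, fell, with an average of 1.05 ± 0.50 FPKM in ESK981 mice and 2.11 ± 0.542 FPKM in vehicle mice (log2 −0.76 ± 0.20; limma adjusted p = 0.0178). With single mice left out, the call ended for Ndrg1 without ESK981 mouse 2 or vehicle mouse 2 (adjusted p up to 0.0525). The mouse gene Myc, which is distinct from the transgene of the line, was at 4.98, 6.8, 7.85, 4.84 and 5.14 FPKM in ESK981 mice, against 6.37, 6.59, 5.15, 11.1 and 5.76 FPKM in vehicle mice, and was not called (log2 −0.15 ± 0.21; limma adjusted p = 0.644).

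Of 28 CDK inhibitors, pocket proteins and D and E cyclins, 4 rose and 2 fell (14.3% and 7.14%, beside 7.64% and 5.8% of all protein-coding genes). All 4 rises were in negative regulators of the cell cycle: Cdkn1b, the inhibitor p27, Cdkn2c, the inhibitor p18, and the pocket proteins Rb1 and Rbl2. These 4 genes were named after their values were seen. Cdkn1b was at 17.3, 15.2, 16.1, 22.6 and 19.6 FPKM in ESK981 mice, against 12.8, 9.33, 11.9, 13.6 and 10.8 FPKM in vehicle mice, with no overlap (log2 0.61 ± 0.17; limma adjusted p = 0.0211). Cdkn2c, Rb1 and Rbl2 rose by 0.64 ± 0.18, 0.45 ± 0.15 and 0.42 ± 0.14 (limma adjusted p of 0.0274, 0.0476 and 0.0483). Both falls were in genes that drive entry into the cycle. Ccnd2, cyclin D2, was at 0.775, 0.532, 0.532, 0.491 and 0.745 FPKM in ESK981 mice, against 1.65, 1.99, 1.4, 0.991 and 1.08 FPKM in vehicle mice (log2 −0.76 ± 0.19; limma adjusted p = 0.0159), and E2f1, the transcription factor held by RB proteins, averaged 1.74 ± 0.665 FPKM in ESK981 mice and 3.06 ± 0.743 FPKM in vehicle mice (log2 −0.71 ± 0.19; limma adjusted p = 0.021). The median of the list was −0.06, and 22 members did not pass. The ESK981 mice split: the median deviation of members from the vehicle mean was −0.26, −0.63, 0.29, 0.21 and 0.18 in mice 1 to 5. Without the right tumours of ESK981 mice 1 and 2 the list median was 0.22. Calls were lost for Cdkn1b without ESK981 mouse 4 or 5 or vehicle mouse 2 (adjusted p up to 0.0641), Ccnd2 without vehicle mouse 2 (adjusted p up to 0.0508), E2f1 without ESK981 mouse 1 or 2 or vehicle mouse 2 (adjusted p up to 0.062), and in more than 3 of 10 fits for Cdkn2c in 5 (up to 0.0665), Rb1 in 9 (up to 0.114) and Rbl2 in 8 (up to 0.115). Rb1 was not called without vehicle tumour 5R (adjusted p = 0.0679), and Rb1 and Rbl2 were not called after GC correction (adjusted p = 0.119 and 0.0803). E2f1 turned to 0.015 against vehicle 5R alone, but was at −0.64 there with median-of-ratios scaling. In that scaled fit Cdkn1b, Cdkn2c, Rb1, Rbl2 and Ccnd2 were at 0.18, 0.65, 0.52, 0.012 and −1.31.

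In the list of BCL2 family genes and caspases, 1 of 26 rose and 2 fell. Xiap, an inhibitor of caspases, averaged 8.64 ± 1.2 FPKM in ESK981 mice and 5.73 ± 0.891 FPKM in vehicle mice (log2 0.56 ± 0.16; limma adjusted p = 0.026), and Bbc3, the death-promoting BH3-only protein PUMA, averaged 1.15 ± 0.294 FPKM in ESK981 mice and 1.81 ± 0.21 FPKM in vehicle mice (log2 −0.47 ± 0.15; limma adjusted p = 0.0391). The calls ended for Xiap in 5 (up to 0.0673) and Bbc3 in 9 (up to 0.0947) of 10 single-mouse fits, and neither gene was called after GC correction (adjusted p = 0.0963 and 0.657). None of 46 DNA repair and damage signalling genes was called by limma, with 7 at an unadjusted p under 0.05, beside at least 13.4% of all protein-coding genes.

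Before GC correction, genes of RNA splicing and chromatin were called upwards only. Of 42 SR proteins, hnRNPs and splicing factors, 7 rose (16.7%, beside 7.64% of all protein-coding genes), with a median of 0.26. Luc7l2, a U1 snRNP-associated factor, was at 81.9, 91.9, 61.2, 70.2 and 67.3 FPKM in ESK981 mice, against 49.9, 41.4, 37.8, 34.4 and 39.8 FPKM in vehicle mice (log2 0.87 ± 0.17; limma adjusted p = 0.00474). Ptbp2, a polypyrimidine tract-binding repressor of exons best known in neurons, was at 10.2, 11.7, 6.59, 9.58 and 10.5 FPKM in ESK981 mice, against 5.56, 5.03, 4.13, 5.42 and 3.71 FPKM in vehicle mice (log2 0.95 ± 0.18; limma adjusted p = 0.00413). Neither gene overlapped between groups. Srsf11, Mbnl1 and Son, named after their values were seen, rose by 0.66 ± 0.17, 0.54 ± 0.16 and 0.52 ± 0.17 (limma adjusted p of 0.0162, 0.0314 and 0.0465).

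Of 32 histone and DNA methylation enzymes 6 rose (18.75%), of 28 chromatin remodelling genes 4 rose (14.3%), and of 27 histone acetylation and bromodomain genes 2 rose (7.41%), with no falls. Of all protein-coding genes 7.64% rose and 5.8% fell, so the acetylation and bromodomain share was near that of all genes. Kdm5a, a histone demethylase, averaged 7.27 ± 1.14 FPKM in ESK981 mice and 4.55 ± 0.665 FPKM in vehicle mice (log2 0.63 ± 0.16; limma adjusted p = 0.0161). Atrx, a remodeller at repeats, averaged 12 ± 0.825 FPKM in ESK981 mice and 7.91 ± 1.06 FPKM in vehicle mice (log2 0.59 ± 0.14; limma adjusted p = 0.012). Kmt2e, Kdm6a, Arid2, Pbrm1, Kat6b and Ep300, which encode histone-modifying enzymes, a protein related to them and SWI/SNF subunits, rose by 0.50 ± 0.13, 0.50 ± 0.14, 0.55 ± 0.14, 0.65 ± 0.18, 0.55 ± 0.12 and 0.42 ± 0.13 (limma adjusted p of 0.0161, 0.0215, 0.0184, 0.0259, 0.00941 and 0.0401), of which Kdm6a and Pbrm1 were named after their values were seen. Of 263 zinc finger genes named Zfp, 40 rose (15.2%) and 6 fell (2.28%), with a median of 0.24. Zfp711 and Zfp955b averaged 1.26 ± 0.153 against 0.636 ± 0.159 FPKM and 1.91 ± 0.327 against 0.972 ± 0.189 FPKM in ESK981 and vehicle mice, with limma adjusted p of 0.00912 and 0.00727.

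The splicing and Zfp lists hold AT-rich transcripts, with a median transcript GC content of 44.6% and 45.7%, beside 50.6% for all tested genes. The chromatin lists as a whole do not, at 50.6% for methylation enzymes, 50.4% for remodelling complexes and 52.5% for acetylation and bromodomain genes. With GC content and length corrected, the medians of the splicing and Zfp lists were 0.13 and 0.086. Those of the methylation, remodelling and acetylation lists were 0.11, 0.13 and 0.12, beside 0.18, 0.22 and 0.14 before correction. In these 3 lists 3, 6 and 3 members were then called higher and 1, 0 and 0 lower, beside 13.2% and 8.91% of all genes with a GC value. Mbnl1 and Kdm6a were no longer called (adjusted p = 0.0904 and 0.0994). In 10 single-mouse fits the calls ended for Son in 9 (up to 0.122), Mbnl1 in 6 (up to 0.0794), Kdm6a in 5 (up to 0.0608), Pbrm1 in 6 (up to 0.0621) and Ep300 in 7 (up to 0.0966), and without vehicle tumour 5R for Son and Ep300 (adjusted p = 0.0528 and 0.0602).

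Fatty acid uptake and oxidation was the metabolic list with the most rises, 5 of 30 tested, with 1 fall and a median of 0.23. These are 16.7% and 3.33%, beside 7.64% and 5.8% of all protein-coding genes. Acadm, the medium-chain acyl-CoA dehydrogenase, was at 33.7, 37.6, 23.4, 31.3 and 26.6 FPKM in ESK981 mice, against 16.9, 11.8, 13.8, 22.5 and 12 FPKM in vehicle mice. All ESK981 mice were above all vehicle mice (log2 1.01 ± 0.18; limma adjusted p = 0.00343). Hadha and Hadhb, the 2 subunits of the mitochondrial trifunctional protein, and Acsl1, which activates long-chain fatty acids, were named after their values were seen. They rose by 0.46 ± 0.14, 0.60 ± 0.17 and 0.95 ± 0.29 (limma adjusted p of 0.0329, 0.0244 and 0.0375). The remaining rise was in Fabp4 (0.84 ± 0.27), also a member of the adipocyte marker list and not counted among the named genes. Against vehicle 5R with median-of-ratios scaling the median of the fatty acid list was −0.16. The fall was in Plin2, the coat protein of lipid droplets, which is abundant in lipid-laden macrophages and averaged 6.0 ± 1.32 FPKM in ESK981 mice and 12.2 ± 3.89 FPKM in vehicle mice (log2 −0.88 ± 0.20; limma adjusted p = 0.00925). The call did not hold for Hadha in 8 (up to 0.0801), Hadhb in 5 (up to 0.0601) and Acsl1 in 6 (up to 0.0973) of 10 single-mouse fits.

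In other lipid lists, Elovl6, a fatty acid elongase, Lpin1, a phosphatidate phosphatase, and Asah1, lysosomal acid ceramidase, rose by 0.62 ± 0.18, 0.80 ± 0.24 and 0.70 ± 0.18 (limma adjusted p of 0.0313, 0.0328 and 0.0155). Nr1h3, which encodes the sterol sensor LXR-alpha, averaged 0.428 ± 0.0882 FPKM in ESK981 mice and 1.24 ± 0.539 FPKM in vehicle mice (log2 −0.83 ± 0.22; limma adjusted p = 0.0194). It turned to 0.035 against vehicle 5R alone, but was at −0.37 there with median-of-ratios scaling. Calls were lost for Nr1h3 without vehicle mouse 2 or 3 (adjusted p up to 0.0606), and for Elovl6 in 6 (up to 0.0801) and Lpin1 in 6 (up to 0.0887) of 10 fits, and Elovl6 had an adjusted p of 0.0577 without vehicle tumour 5R.

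Central carbon metabolism held few calls. None of 26 TCA cycle genes was called by limma, although their median was 0.28 and 9 were at an unadjusted p under 0.05. None of 27 pentose phosphate and nucleotide genes was called, with 4 at an unadjusted p under 0.05. At least 13.4% of all protein-coding genes were at such a p. Of 23 glycolysis and lactate genes, 1 rose and 2 fell. Slc16a3, the lactate exporter MCT4, was at 0.726, 0.366, 0.952, 0.909 and 0.842 FPKM in ESK981 mice, against 3.24, 3.52, 2.82, 1.89 and 1.74 FPKM in vehicle mice. The groups were well apart (log2 −1.32 ± 0.22; limma adjusted p = 0.00193), and vehicle 5R, at 1.84 FPKM, was with the other vehicle tumours. Pdha1, a subunit of pyruvate dehydrogenase, which feeds the TCA cycle, averaged 37.8 ± 3.64 FPKM in ESK981 mice and 26.3 ± 2.55 FPKM in vehicle mice (log2 0.52 ± 0.15; limma adjusted p = 0.028). Mthfd2l, a mitochondrial folate enzyme, averaged 2.57 ± 0.21 FPKM in ESK981 mice and 1.57 ± 0.252 FPKM in vehicle mice (log2 0.58 ± 0.14; limma adjusted p = 0.0117). The call ended for Pdha1 in 7 (up to 0.073) of 10 single-mouse fits.

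Amino acid transport and redox genes split. Slc7a11, the cystine importer that supplies glutathione synthesis, was at 16.2, 20.3, 15, 15.1 and 17.2 FPKM in ESK981 mice, against 10.2, 4.87, 6.23, 10.3 and 5.64 FPKM in vehicle mice, with no overlap (log2 1.21 ± 0.29; limma adjusted p = 0.0114). Other members of the glutathione and NRF2 list did not follow. Hmox1, haem oxygenase, averaged 8.27 ± 2.33 FPKM in ESK981 mice and 20.3 ± 5.98 FPKM in vehicle mice (log2 −1.21 ± 0.27; limma adjusted p = 0.0081), Mgst1, a microsomal glutathione transferase named after its values were seen, also fell (log2 −1.22 ± 0.36; 0.0295), and 18 of 21 tested did not pass. Slc7a2, a cationic amino acid transporter of macrophages among other cells, averaged 1.47 ± 0.695 FPKM in ESK981 mice and 5.96 ± 1.93 FPKM in vehicle mice (log2 −1.64 ± 0.38; limma adjusted p = 0.0102), and Slc7a8, a neutral amino acid exchanger, averaged 0.956 ± 0.183 FPKM in ESK981 mice and 2.31 ± 0.763 FPKM in vehicle mice (log2 −0.89 ± 0.23; limma adjusted p = 0.0165). Slc38a2, a glutamine and alanine importer named afterwards, rose by 0.62 ± 0.17 (0.0242). Against vehicle 5R alone, Slc7a2 and Slc7a8 turned to 0.031 and 0.26 (−0.59 and −0.27 with median-of-ratios scaling as well). The calls ended for Slc7a8 without vehicle mouse 2 (adjusted p up to 0.0519), and for Mgst1 in 6 (up to 0.0814) and Slc38a2 in 4 (up to 0.0656) of 10 fits.

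Metal handling held the call with the smallest adjusted p among the named genes. Slc39a7, the zinc exporter of the endoplasmic reticulum (chromosome 17, 34028269 to 34031682), was at 0.558, 0.67, 0.992, 0.64 and 0.612 FPKM in ESK981 mice, against 2.71, 2.93, 3.07, 3.21 and 2.23 FPKM in vehicle mice. Both groups were tight and far apart (log2 −1.47 ± 0.15; 2.77-fold lower; limma adjusted p = 1.56e-05). Vehicle 5R was at 1.71 FPKM, above all ESK981 mice, and anti-PD-1 mice averaged 1.04 ± 0.334 FPKM, for an ESK981 minus anti-PD-1 difference of −0.34 ± 0.15 (adjusted p = 0.326). Of 19 tested zinc transporters and metallothioneins, 2 rose and 3 fell. These are 10.5% and 15.8%, beside 7.64% and 5.8% of all protein-coding genes. The metallothioneins Mt1 and Mt2, small proteins that bind zinc and copper, were lower too. Mt1 was at 54.2, 47.4, 51.9, 70.1 and 34.8 FPKM in ESK981 mice, against 91.1, 101, 101, 101 and 112 FPKM in vehicle mice (log2 −0.96 ± 0.21; limma adjusted p = 0.00727), and anti-PD-1 mice averaged 59.98 ± 17.4 FPKM. Mt2, named after its values were seen, also fell (log2 −0.75 ± 0.24; 0.0417). Mt1, Mt2 and Dusp1, a phosphatase of MAP kinases (−0.71 ± 0.16; limma adjusted p = 0.0102), were the 3 calls among 15 glucocorticoid-inducible genes, all of them falls (20%, beside 5.8% of all protein-coding genes). In the iron list Ftl1, the ferritin light chain, averaged 179.9 ± 32.8 FPKM in ESK981 mice and 361 ± 65.4 FPKM in vehicle mice (log2 −1.01 ± 0.23; limma adjusted p = 0.0102), and Ireb2, an iron-sensing repressor of ferritin translation, rose by 0.57 ± 0.17 (0.033). The call did not hold for Mt2 in 8 (up to 0.106) and Ireb2 in 7 (up to 0.0851) of 10 single-mouse fits, and for Mt2 without vehicle tumour 5R (adjusted p = 0.094).

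In the circadian list 2 of 17 genes rose. Nr1d2, which encodes the repressor REV-ERB-beta, was at 11.5, 11.9, 7.76, 7.79 and 7.67 FPKM in ESK981 mice, against 6.12, 4.58, 4.31, 4.63 and 4.99 FPKM in vehicle mice (log2 0.84 ± 0.19; limma adjusted p = 0.00985), and Clock, the core activator, averaged 8.91 ± 0.759 FPKM in ESK981 mice and 5.7 ± 1.09 FPKM in vehicle mice (log2 0.63 ± 0.17; limma adjusted p = 0.019). The hour of collection is not among the labels. In the cytochrome P450 family, Cyp26b1, which breaks down retinoic acid, fell and Cyp17a1, a steroid hydroxylase below 0.5 FPKM in every mouse of both groups, rose, with log2 fold changes of −0.87 ± 0.25 and 0.52 ± 0.17 (limma adjusted p of 0.0251 and 0.0445). Calls were lost for Cyp26b1 without ESK981 mouse 5 or vehicle mouse 2 (adjusted p up to 0.0737) and for Cyp17a1 in 8 (up to 0.0934) of 10 fits, for Cyp17a1 after GC correction (adjusted p = 0.103), and for Cyp26b1 without vehicle tumour 5R (adjusted p = 0.0759).

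Ion transport gave rises and falls. Slc12a2, the sodium, potassium and chloride importer NKCC1, was at 31.6, 38.6, 13.2, 21.8 and 21.4 FPKM in ESK981 mice, against 12.5, 7.77, 15.1, 15.9 and 7.16 FPKM in vehicle mice, and ESK981 mouse 3 overlapped with the vehicle mice (log2 1.05 ± 0.27; limma adjusted p = 0.0159). Fxyd5, a modulator of the sodium pump, averaged 1.53 ± 0.299 FPKM in ESK981 mice and 4.24 ± 1.43 FPKM in vehicle mice (log2 −1.17 ± 0.23; limma adjusted p = 0.00493). Trpm7, a magnesium and calcium channel with a kinase domain, averaged 9.32 ± 0.689 FPKM in ESK981 mice and 5.9 ± 0.993 FPKM in vehicle mice (log2 0.64 ± 0.16; limma adjusted p = 0.0134), and Cacna1d, a voltage-gated calcium channel, averaged 0.327 ± 0.0627 FPKM in ESK981 mice and 2.04 ± 1.35 FPKM in vehicle mice (log2 −1.29 ± 0.34; limma adjusted p = 0.0191). The call ended for Cacna1d without vehicle mouse 2 or 3 (adjusted p up to 0.0606).

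In the cytoskeleton and adhesion lists, 4 of 34 primary cilium genes rose (11.8%, beside 7.64% of all protein-coding genes). Among them were Dync2h1, the motor of retrograde intraflagellar transport (0.65 ± 0.17; limma adjusted p = 0.0165), and Bbs9 of the BBSome (0.48 ± 0.14; 0.0319). Kif21a and Kif21b, related kinesins, moved in opposite directions, by 0.47 ± 0.13 and −0.92 ± 0.19 (limma adjusted p of 0.021 and 0.00526). Pard3, a polarity scaffold at tight junctions, was the sole call of 19 tight junction and desmosome genes (0.47 ± 0.13; limma adjusted p = 0.0242). None of 26 actin cytoskeleton genes was called by limma (3 at an unadjusted p under 0.05). The calls ended for Kif21a without ESK981 mouse 4 or 5 or vehicle mouse 4 (adjusted p up to 0.0589), and for Bbs9 in 6 (up to 0.0829) and Pard3 in 4 (up to 0.0622) of 10 fits, and Kif21a was not called after GC correction (adjusted p = 0.091).

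Protein production and quality control held almost no calls. None of 31 constitutive proteasome subunits and none of 21 cytosolic tRNA synthetases was called by limma, with 2 and 1 at an unadjusted p under 0.05. Eif3e, a subunit of initiation factor 3 (log2 0.57 ± 0.19; limma adjusted p = 0.0477), was the sole call of 28 translation factors, and Dnajb4, a cytosolic co-chaperone (0.56 ± 0.16; 0.0242), the sole call of 26 chaperones. Of 75 mitochondrial ribosomal proteins, Mrps6 and Mrpl1 rose by 0.58 ± 0.19 and 0.42 ± 0.14 (limma adjusted p of 0.0466 and 0.0495). Of 26 mitochondrial import and dynamics genes, 2 rose (7.69%) and 1 fell (3.85%), near or below the 7.64% and 5.8% of all protein-coding genes. Dnm1l and Mff, the GTPase that divides mitochondria and its membrane anchor, rose by 0.53 ± 0.16 and 0.49 ± 0.15 (limma adjusted p of 0.0372 and 0.0379), and in both genes all ESK981 mice were above all vehicle mice. The groups did not overlap, in either direction, in 15.8% of all protein-coding genes tested. In the EGF and FGF receptor lists, with 8 and 16 tested members, none was called, and 1 and 4 were at an unadjusted p under 0.05. A miss at this size of group does not show that these genes were equal. The call did not hold for Mrpl1 in 10 (up to 0.105), Mrps6 in 9 (up to 0.108), Eif3e in 9 (up to 0.111), Dnm1l in 7 (up to 0.0858), Mff in 7 (up to 0.084) and Dnajb4 in 6 (up to 0.061) of 10 single-mouse fits, Mrpl1 was not called after GC correction (adjusted p = 0.0758), and Eif3e and Mrps6 were not called without vehicle tumour 5R (0.0553 and 0.0594).

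ESK981 tumours 1R and 2R stood apart in earlier results of these data, and 2R was the only tumour of its mouse. The summed level of 7 red blood cell markers was 110.3 FPKM in 1R and 58.8 FPKM in 2R, beside a median of 19.95 FPKM over ESK981 tumours and 4.66 to 15.6 FPKM in vehicle tumours. Skeletal muscle markers summed to 66.2 FPKM in 1R, beside a median of 11.2 FPKM over ESK981 tumours and 8.92 to 244 FPKM in vehicle tumours. The part of these cells in the values of mice 1 and 2 was not tested. Without them 927 protein-coding genes were called, 527 higher and 400 lower. Igfbp5 and Fam69a stayed called with smaller log2 fold changes of 1.20 and 0.63 (limma adjusted p of 0.0189 and 0.0327), and Cps1 stayed called at 1.51 (0.0128). Of the named genes 48 were no longer called. The log2 fold changes of Inhba, E2f1, Tgfb3, Col4a5, Sema3c, Insr, Adamts12, Sesn1 and Bmpr1b were then −0.48, −0.44, 0.38, 0.31, 0.30, 0.42, 0.43, 0.37 and 0.71. The other calls that ended were those of Slc7a2, Col1a2, Mgst1, Col6a1, Nrp2, Slc7a8, Fzd1, Ndrg1, Mt2, Lfng, Acvrl1, Bbc3, Smad6, Sesn3, Mrpl1, Rbl2, Rb1, Hadha, Pard3, Bmpr1a, Bbs9, Mff, Emcn, Stam, Cyp17a1, Son, Dnm1l, Dnajb4, Eif3e, Ireb2, Mrps6, Hadhb, Ptprb, Kitl, Lpin1, Acsl1, Npy, Slc12a2 and Rgs5, each in the same direction as before.

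Base composition ran through the whole comparison. Genes called higher had a median transcript GC content of 43.6%, genes called lower 54.2% and all tested genes 50.6%. At the third codon position the medians were 46.6%, 66.5% and 60.6%. Genes called higher also had longer transcripts (median 4215 bases, against 2298 for genes called lower) and longer gene spans (51473 bases, against 13170 bases). The coding stretches below show the contrast. They are 150 bases from the middle of the coding sequence of 2 named rises, Fam46d of a family of poly(A) polymerases (chrX:107792590-107872909, + strand) and Fam69a (chr5:107908053-107987085, − strand), and of 2 named falls, Col1a1 (chr11:94936224-94953042, + strand) and Hk3 (chr13:55005985-55021385, − strand), read from GENCODE M21 transcripts on GRCm38. They were picked as the lowest and highest in coding GC content among the 15 largest rises and 15 largest falls that met the naming rule, with mitochondrially encoded genes left out, and capitals mark G and C.
Fam46d, coding bases 511 to 660 of 1170: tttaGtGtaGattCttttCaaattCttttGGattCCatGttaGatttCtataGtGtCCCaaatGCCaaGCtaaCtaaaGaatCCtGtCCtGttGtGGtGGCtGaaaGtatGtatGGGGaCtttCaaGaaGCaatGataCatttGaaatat
Fam69a, coding bases 568 to 717 of 1284: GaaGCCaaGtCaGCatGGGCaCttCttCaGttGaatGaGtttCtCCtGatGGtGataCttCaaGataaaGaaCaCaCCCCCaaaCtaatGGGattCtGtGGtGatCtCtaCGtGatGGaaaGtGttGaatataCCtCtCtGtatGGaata
Col1a1, coding bases 2104 to 2253 of 4359: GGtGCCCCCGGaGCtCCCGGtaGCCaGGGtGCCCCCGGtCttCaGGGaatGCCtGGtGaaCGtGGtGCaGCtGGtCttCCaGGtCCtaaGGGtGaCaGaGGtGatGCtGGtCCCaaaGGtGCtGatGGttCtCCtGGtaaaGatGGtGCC
Hk3, coding bases 1309 to 1458 of 2766: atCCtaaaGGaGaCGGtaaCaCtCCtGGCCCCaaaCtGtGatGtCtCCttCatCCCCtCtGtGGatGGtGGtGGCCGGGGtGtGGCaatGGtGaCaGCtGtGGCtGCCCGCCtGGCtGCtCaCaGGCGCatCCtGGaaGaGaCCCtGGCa

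The stretches of Fam46d and Fam69a hold 34.7% and 42.0% G and C, and those of Col1a1 and Hk3 hold 62.0% and 60.7%. Fam46d was at 5.39, 6.01, 2.77, 4.13 and 3.72 FPKM in ESK981 mice, against 2.05, 1.16, 1.65, 2.1 and 1.17 FPKM in vehicle mice (log2 1.22 ± 0.26; limma adjusted p = 0.00703). Fam69a was at 14.1, 18.4, 9.55, 8.48 and 8.1 FPKM in ESK981 mice, against 5.27, 5.14, 6.37, 4.6 and 4.53 FPKM in vehicle mice (log2 1.02 ± 0.20; limma adjusted p = 0.00411). In both genes ESK981 mice 1 and 2 were highest.

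Across deciles of the genes ordered by transcript GC content, the median log2 fold change ran down from 0.39 in the decile with the lowest GC content to −0.23 in the decile with the highest. In the lowest decile 344 of 1157 genes were called higher and 34 lower, and in the highest decile 0 were called higher and 151 lower. Spearman's rho between GC content and fold change was −0.55 across 11563 genes, which share the same libraries and are not independent. The ESK981 minus anti-PD-1 difference, within 1 run code, ran from 0.20 to −0.22 over the same deciles.

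The contrast could be read in each mouse as the mean deviation of the 20% of genes with the lowest GC content minus that of the 20% with the highest. It was 0.43, 0.34, −0.07, 0.23 and 0.38 in ESK981 mice 1 to 5, −0.09, −0.06, −0.16, −0.18 and 0.01 in anti-PD-1 mice, and −0.20, −0.38, −0.29, −0.19 and −0.26 in vehicle mice. ESK981 mouse 3 was the only ESK981 mouse below 0, yet it was still above every vehicle mouse. Vehicle tumour 5R, on the run code of the treated tumours, was at −0.21, within the range of the vehicle mice. This measure was chosen after the values were seen and has no test.

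**Figure D4:**
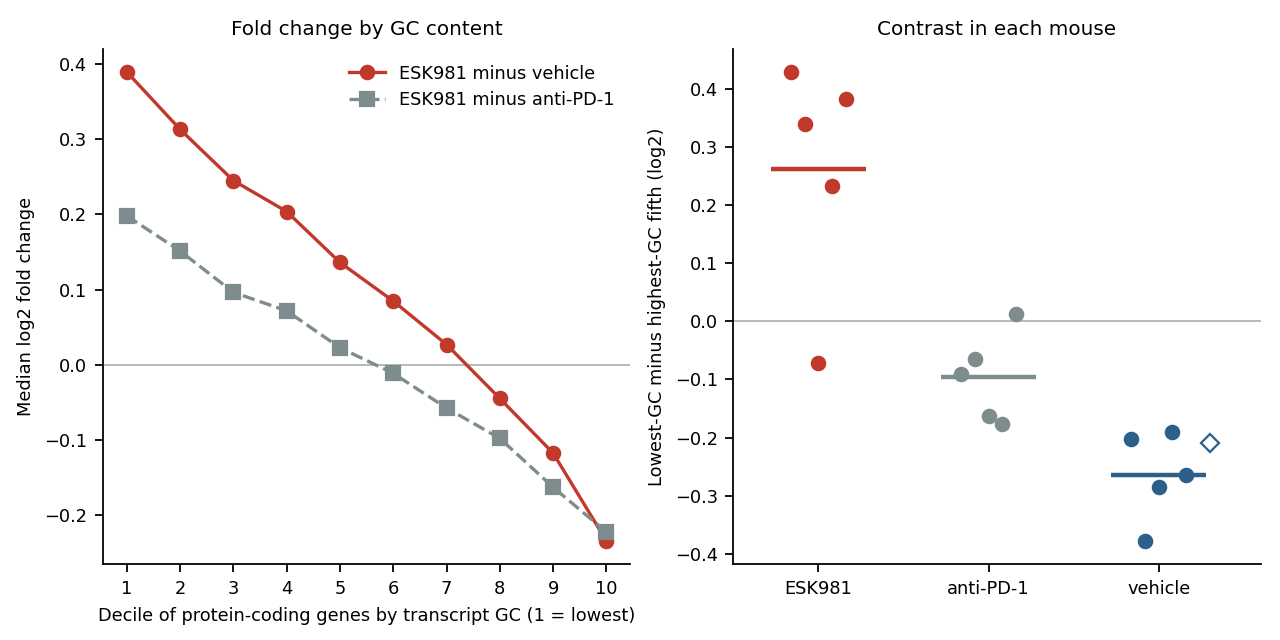
Left, median log2 fold change of protein-coding genes in deciles of transcript GC content, for ESK981 minus vehicle (red circles) and ESK981 minus anti-PD-1 (grey squares). Right, the lowest-GC minus highest-GC contrast (log2) in each mouse, with a line at the group mean and vehicle tumour 5R as an open diamond. ESK981 mice are above all vehicle mice, with mouse 3 at −0.07 the lowest of them.

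When GC content and length were fitted and removed in every tumour, 2558 of 11563 genes were called, 1528 higher and 1030 lower. Of 1546 genes called before and carrying a GC value, 1227 were still called, and all 1546 kept their sign. Of the 139 called genes that are named, 122 were still called. Cps1 (1.70), Igfbp5 (1.79), Igfbp3 (1.43), Acadm (0.92), Slc39a7 (−1.28) and Col1a1 (−1.63) kept log2 fold changes near those given above.

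Set against anti-PD-1 mice, which share the run code of ESK981 mice, ESK981 gave 1 called protein-coding gene of 11639 (0.00859%), the chemokine gene Ccl5 (−2.63 ± 0.42; limma adjusted p = 0.0488), named after its value was seen. At an unadjusted p under 0.05 there were 1483 genes. Both comparisons use the same ESK981 mice. Beside the log2 fold changes against vehicle, the ESK981 minus anti-PD-1 differences were 1.60 ± 0.31 for Cps1, 1.49 ± 0.34 for Igfbp5, 0.68 ± 0.18 for Acadm, −1.16 ± 0.22 for Slc16a3 and −1.87 ± 0.44 for Hk3. For Col1a1, Cdkn1b, Ftl1, Slc39a7 and Mt1, whose anti-PD-1 means lay between those of ESK981 and vehicle mice, they were −0.95 ± 0.42, 0.37 ± 0.17, −0.32 ± 0.23, −0.34 ± 0.15 and −0.17 ± 0.21. Against vehicle 5R alone and with median-of-ratios scaling, 8 of the named rises turned: Mrpl1 (−0.017), Kif21a (−0.30), Grhl2 (−0.00109), Kmt2e (−0.033), Eif3e (−0.066), Rictor (−0.11), Col4a5 (−0.56) and Insr (−0.011).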

How the data were processed

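The deposited table held FPKM values of 48795 genes, made by the authors from ribosomal-RNA-depleted libraries. The submitters' processing notes name STAR, featureCounts and the build mm10, but give neither tool version, and annotation and strand setting are likewise not given in the sources used here. Columns were matched to tumours by the sample description. Without a stated strand setting, reads of overlapping genes on opposite strands cannot be told apart, and close paralogues may share reads.

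Whole fragments were recovered from the FPKM steps, with 100% of low values within 0.01 of a whole number, and were used only for depth. Both flank tumours of a mouse were not treated as independent, and log2(FPKM + 0.5) was averaged over the tumours of a mouse. Genes with at least 0.5 FPKM in at least 5 tumours (15846, of which 11639 are protein-coding) entered limma 3.58.1 (R 4.3.3) with a mean-variance trend, over 20 mice in 4 groups with 16 residual degrees of freedom. P-values are two-sided and Benjamini-Hochberg adjusted over all 15846 genes, and a gene was called under 0.05. The procedure was tested on simulated data. Ear tags mark the mice as separate animals. Counts over lists carry no test. Those at an unadjusted p under 0.05 stand beside a share over all protein-coding genes of at least the 13.4% called, which was not worked out further.

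Named genes are protein-coding, outside the immune symbol patterns and not predicted or clone names. They are the 15 largest called rises and 15 largest called falls with a mean log2 level of at least 1 in the higher group and no overlap between mice, up to 2 called members of each list by smallest adjusted p, and Kdr, Flt1, Tek, Pikfyve and Myc. A few genes are not reported here and were left out of the lists. Other genes are said to be named after their values were seen. The members and lists were chosen with earlier results of these data known. Transcript GC content and length came from GENCODE M21 on GRCm38 and were removed per tumour with splines of 5 and 4 degrees of freedom. Tables were handled in Python 3.11.15 with pandas 2.3.3.

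Alternatives were median-of-ratios scaling, scaling to nuclear protein-coding fragments, other pseudocounts and filters, no trend, ESK981 and vehicle mice only, single tumours with the mouse as a random block, each mouse left out, vehicle 5R left out or kept as the only vehicle tumour, and ESK981 1R and 2R left out. The GC correction, the fit without 3 tumours that stand apart, and vehicle 5R alone with median-of-ratios scaling were added after seeing the data.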

Additional observations from a re-analysis of the deposited data

Results flagged for a closer look

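In 38 groups of 5 mice, 9.55% of those checked, 1 mouse stood apart from the other 4 by Dixon's criterion (a gap over 0.71 of the whole range). Chance gives about 1 in 20 groups. For single genes, the value in brackets is that mouse's log2(FPKM + 0.5). ESK981 mouse 1 was highest for Igfbp6 (0.15) and Acvrl1 (0.32). ESK981 mouse 2 was highest for Col4a5 (3.60). ESK981 mouse 2 was lowest for Adam8 (1.49). ESK981 mouse 3 was lowest for Stam (1.87), Cyp17a1 (−0.53), Dnm1l (4.15), Dnajb4 (1.81), Bmpr2 (2.86) and Spp1 (6.39). Vehicle mouse 1 was highest for Tgfb3 (3.34) and Rictor (2.99). Vehicle mouse 2 was highest for Col5a1 (4.87). Vehicle mouse 4 was lowest for Cps1 (−0.68). Vehicle mouse 5 was lowest for Son (3.91), Ireb2 (2.84), Sema3c (1.13) and Srsf11 (3.28).

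For lists, the value is the median over members of the mouse's deviation from the mean of the vehicle mice for that gene, on the log2 scale. ESK981 mouse 4 was highest for TGF-beta and BMP pathway (0.22) and TCA cycle (0.45). ESK981 mouse 2 was lowest for iron and haem (−0.20) and chromatin remodelling complexes (0.090). Vehicle mouse 2 was highest for keratins and mesenchymal transition genes (0.38). Vehicle mouse 5 was lowest for endosome, ESCRT and retromer (−0.24), TCA cycle (−0.39), sphingolipid and phospholipid synthesis (−0.41), iron and haem (−0.32), zinc transporters and metallothioneins (−0.40), constitutive proteasome subunits (−0.42), mitochondrial import and dynamics (−0.41), chromatin remodelling complexes (−0.39), histone acetylation and bromodomain genes (−0.33), DNA repair and damage signalling (−0.43), CDK inhibitors and D and E cyclins (−0.36), BCL2 family genes and caspases (−0.29), calcium pumps, channels and sensors (−0.40), solute carriers named Slc (−0.40) and mitochondrial ribosomal proteins named Mrpl or Mrps (−0.34). Vehicle mouse 5 is the mouse with tumour 5R, which had the largest ribosomal RNA and mitochondrial shares of the vehicle tumours. It accounts for 15 of the 20 list values given here, and the part of those shares in them was not tested.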

How the results depend on the processing

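Over 25 alternatives, the 1564 called protein-coding genes (2278 of all genes) became 3486 (4420) with median-of-ratios scaling, 3126 (3948) with scaling to nuclear protein-coding fragments, 931 (1412) with no filter on low values, 4264 (5743) with vehicle 5R as the only vehicle tumour, and 927 (1390) without ESK981 tumours 1R and 2R, which leaves 4 ESK981 mice. Leaving out 3 tumours of low depth or high ribosomal RNA share (5R of vehicle, 4R of anti-PD-1, 5R of the combination) gave 3703 (4796). They became 2449 protein-coding genes with single tumours and the mouse as a random block, and 2558 protein-coding genes after GC correction. With each mouse left out in turn, the count ran from 611 without vehicle mouse 2 to 1781 without ESK981 mouse 3 (1054 to 2533 over all genes). The other alternatives stayed within 1.5 times of these counts, including 1682 without vehicle 5R. The cause of these shifts was not tested. No paired analysis was possible because the mouse numbers name mice in label order and ear tags pair none across groups.

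Of 143 named genes, 139 were called, 77 of them in every fit with a mouse left out, and none changed sign in those fits. The call was lost by 48 named genes without ESK981 tumours 1R and 2R and by 12 without vehicle 5R. It was lost with median-of-ratios scaling by Cyp17a1, Col4a5 and Sema3c, and with only ESK981 and vehicle mice in the fit by Rbl2, Sesn3, Sema3c and Sesn1. It was also lost by 44 with no filter on low values, 32 against vehicle 5R alone, 66 against 5R with median-of-ratios scaling, 17 after GC correction and 7 with nuclear protein-coding scaling. Kdr, Flt1 and Pikfyve were called against 5R alone.

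Signs turned with vehicle 5R as the only vehicle tumour for Tgfbi (0.092), Slc7a2 (0.031), Nrp2 (0.13), Slc7a8 (0.26), Nr1h3 (0.035), Fzd1 (0.20), Lfng (0.24), E2f1 (0.015), Acvrl1 (0.22), Pik3cd (0.0055), Smad6 (0.0042) and Myc (0.046). In that fit the median over all genes was 0.62. With median-of-ratios scaling as well, all of these genes were below 0, as in the main fit. The scaled fit against 5R turned the signs of Mrpl1 (−0.017), Kif21a (−0.30), Grhl2 (−0.0011), Kmt2e (−0.033), Eif3e (−0.066), Rictor (−0.11), Col4a5 (−0.56) and Insr (−0.011). GC correction turned the sign of Pikfyve (−0.0072). All turned values missed the threshold. Fits against 5R rest on 1 vehicle tumour, which is assumed to vary like mice of the other groups. Vehicle tumours had fewer fragments than ESK981 tumours on the median, so low genes are less precise there.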
